A study of Mus musculus with 3 samples.

Results

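Sister chromatids are tied together by cohesin, and 8 genes whose products make, protect or undo that tie were followed in single cells of the mouse limb bud. They were Esco1, Esco2, Cdca5, Hdac8, Sgo1, Sgo2a, Pttg1 and Espl1, chosen by name as 8 of the 31054 features counted in each library, and every one of them was present in all 3 libraries. Forelimb buds were taken at embryonic day 9.5 and their RNA was sequenced cell by cell. Mutant embryos (Esco2fl/fl;Prrx1-CreTg/0) were homozygous for a floxed Esco2 allele and carried a Cre transgene under Prrx1 control, which acts in limb bud mesenchyme. Control embryos (Esco2fl/fl) carried the same floxed alleles without Cre. The design gives 3 replicates per genotype, of which 2 mutant libraries and 1 control library were analysed here, each from 3 pooled samples of 2 limb buds, 6 buds in all, with 2 male samples and 1 female sample per the labels. Litters are not stated for them, and p-values therefore rest on how far single libraries, which may share litters, spread.

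Cohesin is a ring that is loaded before replication and holds both copies of each chromosome once they are made. During S phase the acetyltransferase ESCO2 acetylates the ring's SMC3 subunit, and sororin, the product of Cdca5, then binds and keeps the ring closed. ESCO1 acetylates the same subunit without being tied to replication, and HDAC8 removes the mark so that cohesin can be used again. In early mitosis most arm cohesin leaves, while the shugoshins SGO1 and SGO2 guard the centromeres. Securin, encoded by Pttg1, restrains separase until anaphase, when separase, encoded by Espl1, cuts the ring. Loss of ESCO2 in people causes a syndrome with shortened limbs.

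The libraries of mutant 1, mutant 2 and control 1 held 7219, 8755 and 6527 barcodes. After filtering and a minimum of 10000 unique molecular identifiers (UMIs) per cell, 2808, 3855 and 2365 cells remained. Cells were assigned to classes by marker genes that include no member. Limb mesenchyme, marked by Prrx1, Tbx5 and Twist1, held 1106, 1965 and 899 cells, and Prrx1 was detected in 94.5%, 96.1% and 88.9% of them. Surface ectoderm, marked by Epcam and Wnt6, held 376, 312 and 295 cells, endothelium 390, 429 and 483, and erythroid cells 601, 446 and 397. Flank and visceral mesoderm had 29, 38 and 53 cells, under the minimum of 50 in both mutants, and was not tested. Levels are counts per 1000000 (CPM) of the UMIs summed over the cells of a class in 1 library. A feature named CRE was seen in 5.33% and 6.21% of mutant mesenchyme cells, against 0 of 899 control mesenchyme cells, which allows a share of up to 0.334%. Libraries shared 65 to 117 barcodes, of which at most 5 were kept as cells in both libraries of any pair. Cells with an Xist UMI and no Y-linked UMI made up 1.72% and 0.509% of mutant mesenchyme, against 11.46% of control mesenchyme. The share varied with the class. It was 0.798% and 1.28% in mutant ectoderm, against 8.81% in the control, and 6.49% and 16.4% in mutant erythroid cells, against 27.7%. The control was above both mutants in each class tested. By this measure the libraries differed in sex balance although the labels give the same for each.

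Esco2 itself, at chr14:65819038-65833994 on the minus strand (GRCm38), was measured at 23.0 and 21.7 CPM in mutant mesenchyme, against 31.4 CPM in control mesenchyme. These levels rest on 1267 and 2294 UMIs in the mutants and 1819 UMIs in the control. Both mutants lay below the control by the same amount, a log2 fold of -0.54 in each. The fitted log2 fold was -0.54 (SE 0.27), with an unadjusted p of 0.0403 and an adjusted p of 0.859, so the difference did not pass the test. The test was edgeR's quasi-likelihood test on the summed counts, with Benjamini-Hochberg adjustment over all genes tested, and a gene was called at an adjusted p under 0.05. The fit had 1 control library, 1 residual degree of freedom and an infinite prior. Its spread thus came from the mutants over all genes together and not from Esco2 itself. In this comparison 1.5% of 10151 genes were called, 0.847% higher and 0.65% lower in mutant mesenchyme, and no member was among them. By edgeR 1 member, Esco2, had an unadjusted p under 0.05, as did 5.15% of all genes tested, and DESeq2 called 0 members. The counts are taken from the 3′ ends of transcripts. They do not measure deletion of the floxed part, so the Esco2 level checks nothing about recombination.

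Outside the mesenchyme the mutant and control levels of Esco2 lay close together. In surface ectoderm Esco2 was at 30.0 and 34.2 CPM in mutants, against 33.0 CPM in the control. In endothelium it was at 30.7 and 34.9 CPM in mutants, against 27.3 CPM in the control. In erythroid cells it was at 24.3 and 27.2 CPM in mutants, against 27.9 CPM in the control. In CPM the mutants enclosed the control in ectoderm, lay above it in endothelium and below it in erythroid cells. With the fits' composition factors the log2 ratios of mutant 1 and mutant 2 were -0.20 and -0.03 in ectoderm, both below the control, 0.15 and 0.30 in endothelium, and -0.11 and 0.11 in erythroid cells, on either side of it. The fitted log2 folds were -0.12 (SE 0.18) in ectoderm, 0.23 (SE 0.14) in endothelium and 0.00 (SE 0.15) in erythroid cells, with adjusted p of 0.847, 0.730 and 0.998 by edgeR. No gene of the 10731, 9751 and 7264 tested was called in these 3 classes (0%). At an unadjusted p under 0.05 they held 796, 655 and 185 genes, and DESeq2 called 29, 47 and 23 genes. The difference between the Esco2 effects in mesenchyme and ectoderm was -0.40 on the log2 scale (SE 0.25), and as an interaction term in edgeR it had an adjusted p of 1.00, with 0.253% of 10660 genes called (0.178% higher, 0.075% lower) and 0 members. By edgeR 1 member, Hdac8, had an unadjusted p under 0.05, as did 3.89% of all genes tested, and DESeq2 called 0 members.

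**Figure D1:**
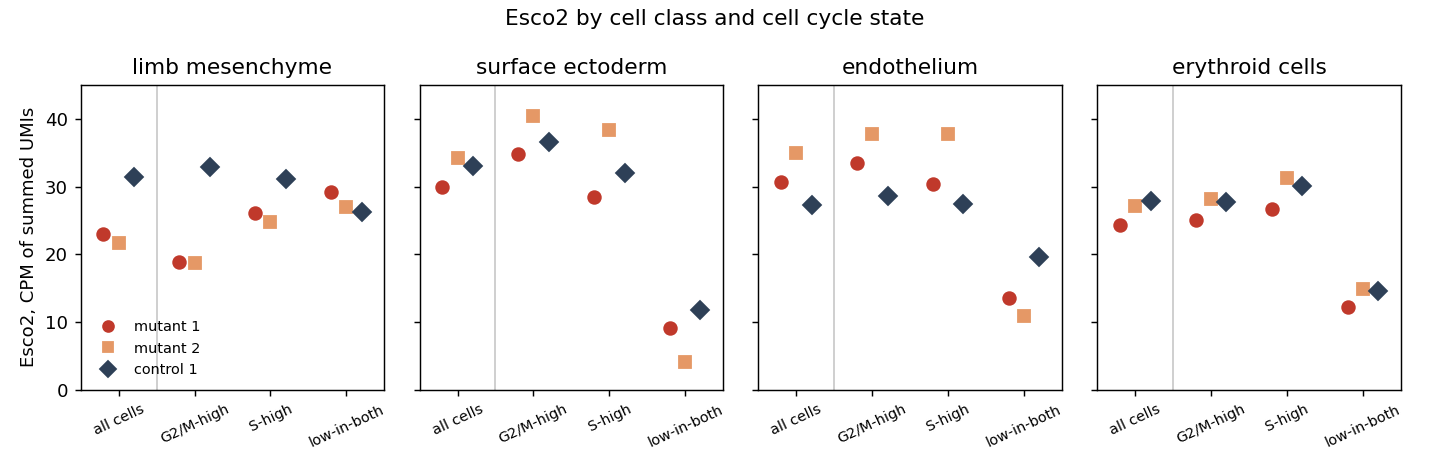
Esco2 in CPM of summed UMIs (vertical axis) in 4 cell classes, for all cells and for the 3 cell cycle states; each point is 1 library, mutants left of the control. In mesenchyme the mutants lie furthest below the control in G2/M-high cells (18.9 and 18.8 against 32.9 CPM) and not below it in low-in-both cells.

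Cells of each class were split by published lists of 43 S phase genes and 54 G2/M genes, neither of which holds a member. A cell was G2/M-high where its G2/M score was above the class mean and above its S score, S-high where only or mainly the S score was above the mean, and low-in-both otherwise. In mesenchyme the G2/M-high share was 40.0% and 47.3% in mutants, against 43.2% in the control. The S-high share was 37.5% and 41.6% in mutants, against 42.6% in the control. The low-in-both share was 22.5% and 11.1% in mutants, against 14.2% in the control. The mutants thus differed from each other in the low-in-both share more than their mean differed from the control. Between 23 and 140 cells per state and library had an S or G2/M score within 0.1 SD of the class mean, so the states are ranges and not types. Cells near the border where both scores are equal were not counted.

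Esco2 in mutant mesenchyme lay furthest below the control in G2/M-high cells. There Esco2 was at 18.9 and 18.8 CPM in mutants (502 and 1056 UMIs), against 32.9 CPM in the control (883 UMIs). The log2 fold was -0.88 (SE 0.23), a ratio of 0.543, with an unadjusted p of 0.00101 and an adjusted p of 0.0824 by edgeR. This missed the threshold, and 0 members were called in a comparison where 1.04% of 10042 genes were (0.568% higher, 0.468% lower). DESeq2 called 0 members as well. Over the alternative settings the adjusted p of Esco2 ran from 0.0194 to 0.564, and it was under the threshold in 3 of them. In S-high cells Esco2 was at 26.0 and 24.8 CPM in mutants, against 31.1 CPM in the control, a log2 fold of -0.35 (SE 0.26) with an adjusted p of 0.999 by edgeR. In low-in-both cells it was at 29.2 and 27.0 CPM in mutants, against 26.3 CPM in the control, a log2 fold of 0.14 (SE 0.27) with an adjusted p of 0.999 by edgeR. No member was called in either state by edgeR or DESeq2, and 0 members had an unadjusted p under 0.05 by either. By edgeR 5.52% of all genes had one in S-high cells and 7.19% in low-in-both cells. Over all genes 1.41% of 10093 were called in S-high cells (0.971% higher, 0.436% lower) and 1.46% of 10513 in low-in-both cells (1.13% higher, 0.333% lower).

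The mutant difference in Esco2 was set against the state in a separate test. The mutant-over-control log2 fold of Esco2 was lower in G2/M-high than in S-high mesenchyme, with a difference of -0.52 (SE 0.12). As an interaction term within libraries this passed edgeR's test with an adjusted p of 0.000427. The fit had 1 residual degree of freedom and an infinite prior, so its spread was taken from all genes together and not from Esco2 itself. The control side of the difference rests on 1 library. The term was added after the state values had been seen, and it called 6.61% of 10084 genes (3.71% higher, 2.91% lower), with 2 members among them, Hdac8 higher and Esco2 lower. Taken 1 mutant at a time with no test, the difference was -0.56 for mutant 1 and -0.51 for mutant 2. It lost its call when every cell was given the same weight by thinning (-0.69, adjusted p 0.217 by edgeR) and when cells low in ribosomal protein RNA were left out (-0.53, adjusted p 0.131 by edgeR). DESeq2 called 0 members in this comparison, with an adjusted p for 4 of the 8 and none for Esco2. Over the alternatives the Esco2 difference ran from -0.69 to -0.49 and its adjusted p from 7.11e-05 to 0.217, called in 11 of the 13 that gave one.

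The share of cells with an Esco2 UMI was taken at 10000 UMIs per cell. In G2/M-high mesenchyme it was 19.0% and 14.7% in mutants, against 24.7% in the control. Its exact 95% intervals were 15.5% to 23.0% and 12.5% to 17.2% in the mutants, against 20.5% to 29.3% in the control, so only that of mutant 2 stood clear of the control's. In S-high mesenchyme it was 19.0% and 20.9% in mutants, against 21.4% in the control. In low-in-both mesenchyme it was 24.5% and 21.005% in mutants, against 23.4% in the control, so mutant 2 lay further below the control there than in S-high cells, unlike its CPM. Over all mesenchyme it was 20.3% and 18.02% in mutants, against 23.1% in the control, and without thinning 53.6% and 57.0% in mutants, against 66.3% in the control. The median depths behind the unthinned shares were 39844.5 and 53746 UMIs in mutants and 44296 UMIs in the control. Intervals cover counting error within a library only. No gated class was free of these genes. As a gauge of loose RNA, Esco2 made up 22.9 and 12.3 CPM of the barcodes under 500 genes in the mutant libraries, against 7.06 CPM in the control library. These values rest on 35 and 22 UMIs in the mutants and 14 UMIs in the control. Each of the other members was also lower in the control's barcodes of this kind. Sgo1, for example, was at 37.2 and 26.3 CPM in mutants, against 7.57 CPM in the control. Such barcodes may also be broken cells, and their part in the Esco2 levels was not tested.

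In G2/M-high cells of the other classes the mutants did not lie below the control in the same way. In G2/M-high ectoderm Esco2 was at 34.9 and 40.4 CPM in mutants, against 36.6 CPM in the control. In G2/M-high endothelium it was at 33.5 and 37.8 CPM in mutants, against 28.6 CPM in the control. In G2/M-high erythroid cells it was at 24.995 and 28.2 CPM in mutants, against 27.8 CPM in the control. The mutants enclosed the control in ectoderm and erythroid cells and lay above it in endothelium, and these state values were not tested. Low-in-both cells of these 3 classes held less Esco2 than their G2/M-high cells in every library, at 4.06 to 19.6 CPM, whereas low-in-both mesenchyme held 26.3 to 29.2 CPM.

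Esco2 detection was also compared between mutant cells with and without a Cre transcript. In mutant 1, 16.9% of the 59 mesenchyme cells with a CRE UMI had an Esco2 UMI, against 20.4% of the 1047 without. In mutant 2 the shares were 14.8% of 122 cells with a CRE UMI and 18.2% of 1843 without. Both mutants gave the lower share in CRE-positive cells, with intervals of 8.44% to 29.0% and 8.98% to 22.3% that take in the share of the other cells. CRE was seen in 6.11% and 7.75% of G2/M-high, 5.54% and 5.39% of S-high, and 3.61% and 2.74% of low-in-both mutant mesenchyme cells. CRE was counted without thinning, and depth differed between the states. Median depths were 51232 and 62793 UMIs in G2/M-high, 43717 and 52115 in S-high, and 26452 and 25605 in low-in-both mutant cells. The part of depth in the CRE shares was not tested.

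The 3 genes that were higher in G2/M-high than in S-high mesenchyme were Sgo2a, Sgo1 and Espl1, all with roles in mitosis. Sgo2a, whose product protects centromeric cohesin, was at 80.9, 81.8 and 74.3 CPM in G2/M-high cells of mutant 1, mutant 2 and control 1, against 38.5, 39.2 and 31.9 CPM in their S-high cells. All 3 libraries were higher in G2/M-high cells, with a log2 fold of 1.11 (SE 0.06) and an adjusted p of 1.06e-06 by edgeR. Sgo1, the other shugoshin, was at 85.8, 78.7 and 78.6 CPM in G2/M-high cells, against 46.8, 46.9 and 43.6 CPM in S-high cells. Its log2 fold was 0.82 (SE 0.06) with an adjusted p of 4.44e-06 by edgeR. Espl1, the separase gene, was at 36.9, 36.8 and 30.7 CPM in G2/M-high cells, against 20.7, 22.2 and 18.7 CPM in S-high cells. Its log2 fold was 0.75 (SE 0.08) with an adjusted p of 9.95e-05 by edgeR. In this comparison 14.5% of 10256 genes were called, 6.37% higher and 8.14% lower, beside 3 of 8 members higher and none lower, and the states were themselves cut from genes of these phases. The median log2 fold was 0.09 over the 8 members and 0.00 over all genes.

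The 4 genes that act around replication or on acetylation, and securin, were not called between these states. Cdca5, which encodes sororin, was at 24.9, 28.3 and 24.2 CPM in G2/M-high cells of mutant 1, mutant 2 and control 1, against 26.2, 30.4 and 26.6 CPM in S-high cells. Pttg1 was at 27.4, 34.9 and 31.1 CPM in G2/M-high cells, against 32.6, 38.2 and 31.9 CPM in S-high cells. Every library gave a lower G2/M-high value for both, with log2 folds of -0.11 (SE 0.08) and -0.14 (SE 0.07) and adjusted p of 0.400 and 0.204 by edgeR. Esco1 was at 23.9, 19.2 and 21.4 CPM in G2/M-high cells, against 23.3, 20.2 and 20.3 CPM in S-high cells, a log2 fold of 0.01 (SE 0.08) with an adjusted p of 0.981 by edgeR. Hdac8 was at 77.4, 60.6 and 60.8 CPM in G2/M-high cells, against 59.8, 52.5 and 62.3 CPM in S-high cells. It was higher in both mutants and slightly lower in the control, with a log2 fold of 0.18 (SE 0.07) and an adjusted p of 0.144 by edgeR. Esco2 had a log2 fold of -0.25 (SE 0.14) and an adjusted p of 0.277 by edgeR, and without control 1 it was -0.44 with an adjusted p of 0.00666 by edgeR.

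**Figure D2:**
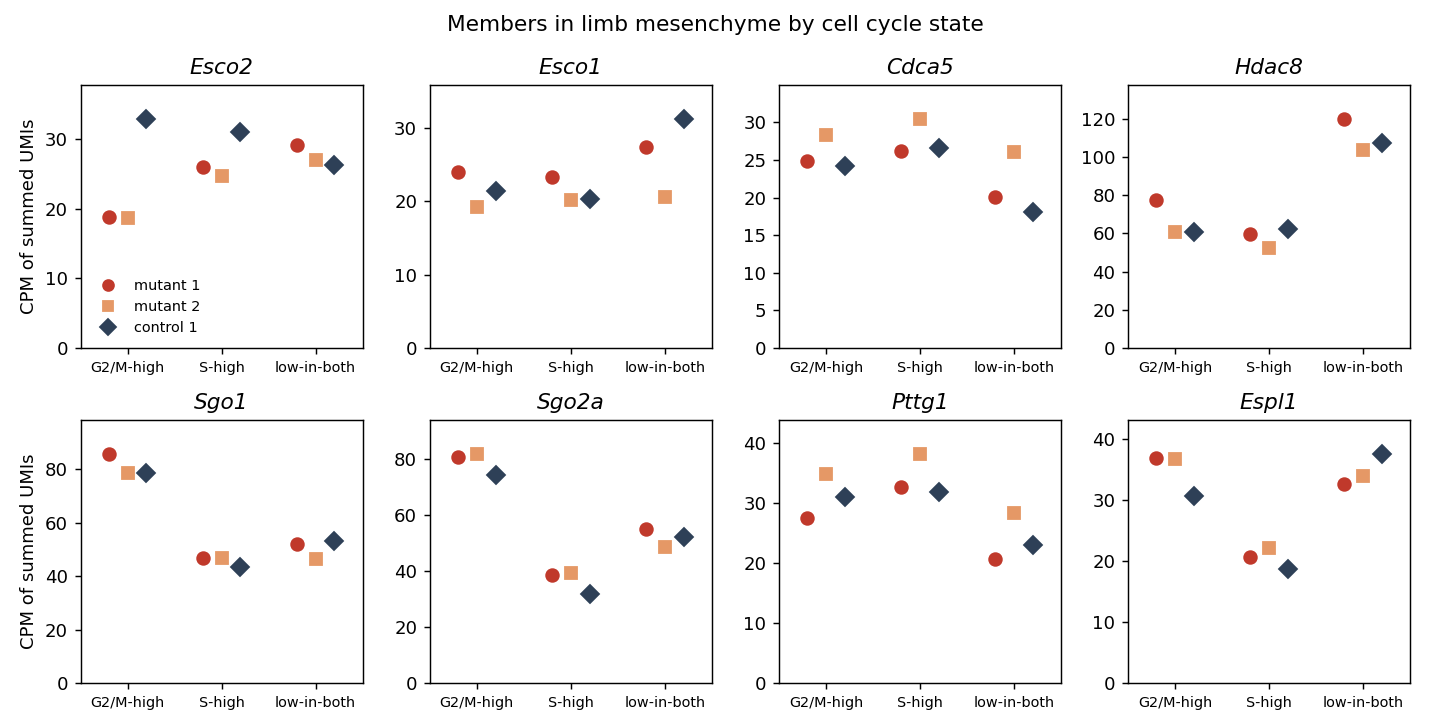
CPM of summed UMIs (vertical axes, each from 0) of the 8 members in G2/M-high, S-high and low-in-both limb mesenchyme; each point is 1 library, mutants left of the control. Sgo1, Sgo2a and Espl1 stand higher in G2/M-high than in S-high cells in all 3 libraries, and Esco2 in G2/M-high cells is at 18.9 and 18.8 CPM in mutants, against 32.9 CPM in the control.

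The promoters of Cdca5, Espl1, Sgo2a and Sgo1 are shown because their genes share a role in mitotic cohesion while 3 of them were higher in G2/M-high cells and Cdca5 was not. Each is the 250 bases before the annotated start, from RefSeq on GRCm38.p6, read 5′ to 3′ on the gene's own strand. Capitals mark the letters TTTGAA (the cell cycle homology region, CHR), TTTNNCGC (an E2F-type site) and CCAAT, searched on both strands.
Cdca5, chr19:6084847-6085096, plus strand: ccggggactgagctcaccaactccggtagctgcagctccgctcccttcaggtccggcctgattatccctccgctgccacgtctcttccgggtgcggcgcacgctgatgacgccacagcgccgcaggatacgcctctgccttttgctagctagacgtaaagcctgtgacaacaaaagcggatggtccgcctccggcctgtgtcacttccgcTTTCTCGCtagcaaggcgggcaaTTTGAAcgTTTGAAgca
Espl1, chr15:102296043-102296292, plus strand: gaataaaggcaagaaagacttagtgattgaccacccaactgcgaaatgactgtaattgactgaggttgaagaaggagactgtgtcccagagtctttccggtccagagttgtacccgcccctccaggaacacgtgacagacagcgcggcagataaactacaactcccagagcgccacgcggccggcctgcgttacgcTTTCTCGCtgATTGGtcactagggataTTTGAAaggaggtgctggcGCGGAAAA
Sgo2a, chr1:57995724-57995973, plus strand: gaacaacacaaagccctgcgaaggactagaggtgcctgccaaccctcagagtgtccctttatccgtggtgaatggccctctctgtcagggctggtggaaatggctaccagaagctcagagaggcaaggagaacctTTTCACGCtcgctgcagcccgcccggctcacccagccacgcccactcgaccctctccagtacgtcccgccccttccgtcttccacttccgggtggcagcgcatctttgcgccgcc
Sgo1, chr17:53689316-53689565, minus strand: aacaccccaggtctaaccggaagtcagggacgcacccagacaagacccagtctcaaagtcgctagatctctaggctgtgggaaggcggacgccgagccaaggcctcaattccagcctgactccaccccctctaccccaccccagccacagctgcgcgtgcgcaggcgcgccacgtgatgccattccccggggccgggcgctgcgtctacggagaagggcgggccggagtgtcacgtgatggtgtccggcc
Cdca5 has 2 copies of TTTGAA, from base -17 to -12 and from -9 to -4, and the E2F-type letters TTTCTCGC from -40 to -33. Espl1 has TTTGAA from -27 to -22, the E2F-type letters from -54 to -47 and on the other strand from -8 to -1, and CCAAT on the other strand from -44 to -40. The listed Sgo2a start nearest to its gene model has the E2F-type letters from -115 to -108, and the Sgo1 window holds none of these letters. The other listed Sgo2a start has CCAAT from -194 to -190 and no E2F-type letters. Of the members not shown, Hdac8 has TTTGAA and CCAAT in its window and Pttg1 has none of these letters. Of 32851 RefSeq promoter windows of the same length, 15.99% hold TTTGAA, 4.28% the E2F-type letters and 33.8% CCAAT. A match describes letters only and is not a measured binding site. Esco1 and Esco2 had no entry in the table.

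Cells low in both scores differed from the other states in most genes tested. Between G2/M-high and low-in-both mesenchyme 74.1% of 10256 genes were called (35.9% higher, 38.2% lower), and between S-high and low-in-both mesenchyme 72.1% were (34.9% higher, 37.2% lower). Low-in-both mesenchyme had 11.4%, 14.8% and 12.2% of its UMIs in ribosomal protein genes in mutant 1, mutant 2 and control 1, against 17.6%, 19.95% and 20.6% in G2/M-high cells. It had 6004, 4645 and 5677 CPM of the nuclear RNA Malat1, against 4631, 3755 and 3598 CPM in G2/M-high cells. The part of these differences in the members' levels was not tested. Of the members, 5 of 8 were called in each comparison, a smaller share than over all genes. G2/M-high cells were higher in Sgo1, Sgo2a, Pttg1 and Cdca5 and lower in Hdac8, whose log2 fold was -0.59 (SE 0.08). S-high cells were higher in Pttg1 and Cdca5 and lower in Sgo2a, Espl1 and Hdac8. Espl1 was at 32.7, 34.0 and 37.6 CPM in low-in-both mesenchyme, close to its G2/M-high level. Among cells with at least 10% ribosomal protein UMIs the numbers of members called fell to 3 and 1, and Cdca5 and Pttg1 were no longer higher in G2/M-high cells (-0.10 and -0.06).

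In surface ectoderm the low-in-both cells held low levels of Cdca5 and Esco2. Cdca5 was at 2.45, 4.06 and 4.44 CPM in low-in-both ectoderm of mutant 1, mutant 2 and control 1, against 30.9, 30.5 and 27.6 CPM in G2/M-high ectoderm. Esco2 was at 9.19, 4.06 and 11.8 CPM, against 34.9, 40.4 and 36.6 CPM in G2/M-high ectoderm. Hdac8 was higher there, at 146, 128 and 78.4 CPM in low-in-both ectoderm, against 109, 85.5 and 59.4 CPM in G2/M-high ectoderm. Low-in-both ectoderm had 33 to 60 cells per library, and these values were not tested.

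Esco2 was the only member with an unadjusted p under 0.05 between mutant and control mesenchyme, a bar that 523 of 10151 genes (5.15%) passed by edgeR. Esco1 was at 24.2 and 19.7 CPM in mutants, against 22.1 CPM in the control. Cdca5 was at 24.7 and 29.0 CPM in mutants, against 24.5 CPM in the control. Sgo1 was at 66.4 and 63.8 CPM in mutants, against 60.9 CPM in the control. For Esco1 the mutants fell on either side of the control, for Sgo1 both lay above it, and Cdca5 of mutant 1 was level with it. Sgo2a was at 61.4 and 62.5 CPM in mutants, against 53.9 CPM in the control. Pttg1 was at 28.4 and 35.7 CPM in mutants, against 30.5 CPM in the control. Espl1 was at 30.3 and 30.8 CPM in mutants, against 26.4 CPM in the control. Both mutants were above the control for Sgo2a and Espl1, and the mutants enclosed the control for Pttg1. The log2 folds of these 6 genes ran from -0.07 for Esco1 to 0.15 for Espl1, with SEs of 0.27 to 0.32 and adjusted p of 1.00 each by edgeR. The median was 0.03 over the 8 members and -0.01 over all genes.

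At an equal depth of 10000 UMIs per cell, the shares of mesenchyme cells with a UMI gave the members' spread between libraries in another way. Sgo2a was found in 55.2% and 54.0% of G2/M-high mutant cells, against 41.2% of G2/M-high control cells, with exact 95% intervals of 50.4% to 59.9% and 50.8% to 57.3% in the mutants, against 36.3% to 46.3% in the control. These intervals did not overlap, while the CPM of Sgo2a in the same cells, 80.9 and 81.8 in mutants against 74.3 in the control, gave a log2 fold of 0.05 (SE 0.27). Over the alternative settings, thinned sums among them, that log2 fold ran from 0.00 to 0.16. Sums weight deep cells more than thinned shares do, and counting intervals leave out the spread between libraries. The part of either in the gap between shares and sums was not tested. Hdac8 was found in 47.7% and 39.8% of all mutant mesenchyme cells, against 35.7% of control cells, and in 54.8% and 46.2% of mutant ectoderm cells, against 36.6% of control ectoderm cells. Both mutants were above the control in each class. Pttg1 was found in 17.6% and 28.0% of G2/M-high mutant cells, against 28.1% of G2/M-high control cells, so the mutants differed from each other more than mutant 2 differed from the control. Cdca5 behaved alike, with 18.2% and 25.4% of mutant mesenchyme cells, against 22.5% of control cells. Espl1 was found in 32.4% and 31.0% of G2/M-high mutant cells, against 26.8% of G2/M-high control cells, with overlapping intervals.

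Outside the mesenchyme, Hdac8 gave the lowest unadjusted p of any member, in ectoderm. Hdac8 lies at chrX:102284639-102505359 and spans 220721 bases, the longest gene of the set. It was at 106 and 86.8 CPM in mutant ectoderm, against 58.3 CPM in control ectoderm. Both mutants were above the control, with a log2 fold of 0.65 (SE 0.20), an unadjusted p of 0.0321 and an adjusted p of 0.651 by edgeR, so the difference was not called. In the same cells Malat1 was at 8244 and 6921 CPM in mutants, against 5381 CPM in the control, and its part in the Hdac8 level was not tested. In endothelium Hdac8 was at 47.4 and 46.9 CPM in mutants, against 36.3 CPM in the control (log2 fold 0.34, SE 0.11, adjusted p 0.692 by edgeR). In mesenchyme it was at 77.0 and 60.2 CPM in mutants, against 66.8 CPM in the control (log2 fold -0.02, SE 0.32), and in erythroid cells at 22.7 and 20.7 CPM in mutants, against 24.6 CPM in the control. The mesenchyme effect minus the ectoderm effect was -0.64 (SE 0.25), with an unadjusted p of 0.0261 and an adjusted p of 1.00 by edgeR. Within mesenchyme the mutant effect on Hdac8 was higher in G2/M-high than in S-high cells by 0.30 (SE 0.08). This difference had an adjusted p of 0.0103 by edgeR, under the limits given for the Esco2 term. It was called in 6 of 14 alternatives with an adjusted p, which ran from 0.000321 to 1.00, DESeq2 not among the 6. Hdac8 is X-linked and the libraries differed in sex balance, whose part in its level was not tested. No label says if reads from introns were counted.

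**Figure D3:**
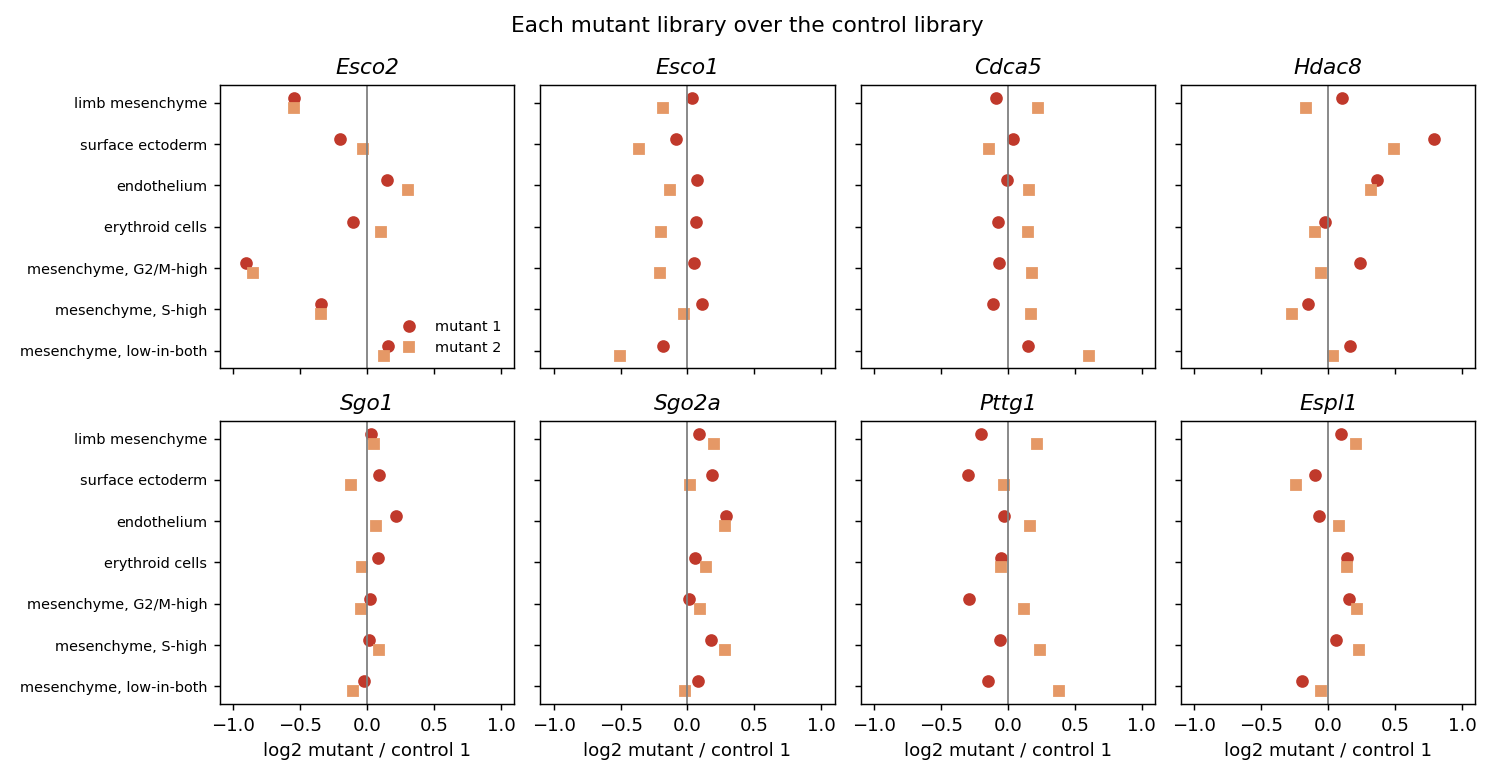
Log2 ratio of each mutant library over control 1 (horizontal axis, from log2 CPM with a prior count of 2) for the 8 members in 4 classes and in 3 states of mesenchyme; circles are mutant 1 and squares mutant 2. Esco2 in G2/M-high mesenchyme lies at -0.91 and -0.85, and Hdac8 in ectoderm at 0.79 and 0.49.

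Genes that work with the members were compared in the same way in mutant mesenchyme. Of 10 genes of the cohesin ring, its loader and its release factors, 9 partners of establishment at the replication fork and 12 mitotic regulators of cohesin removal, none was called in either direction by edgeR, and none had an unadjusted p under 0.05 (0 genes). DESeq2 called 0 of them too, with 1 at an unadjusted p under 0.05. Their median log2 folds were 0.02, -0.06 and -0.06, against -0.01 over all genes. The lowest was Pcna, the sliding clamp of the replication fork that recruits ESCO2, at 84.0 and 97.7 CPM in mutant mesenchyme, against 137 CPM in control mesenchyme. Its log2 fold was -0.65 (SE 0.34) with an adjusted p of 0.999 by edgeR, and it was also below the control in mutant ectoderm, endothelium and erythroid cells, at -0.91, -0.69 and -0.50. Pcna is in the S list that helped to cut the states. Between G2/M-high and S-high mesenchyme, where 6.37% of all genes were higher and 8.14% lower, the lists were counted in the same way. Of the 6 mitotic regulators not used to cut the states, 4 were higher in G2/M-high than in S-high mesenchyme and none lower, with Plk1, which strips arm cohesin, at 1.49 (SE 0.05), Ccnb1 at 1.34, Incenp at 1.146 and Haspin at 0.39. Of the 5 fork partners not used, 2 were lower, Wdhd1 at -1.06 (SE 0.06) and Timeless at -0.38 (SE 0.08). Of the 10 ring, loader and release genes only Smc1a was called, at 0.20 (SE 0.05).

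Across cell classes Esco1 was lower in mesenchyme than in ectoderm and endothelium. It was at 24.2, 19.7 and 22.1 CPM in mesenchyme of mutant 1, mutant 2 and control 1, against 47.5, 39.8 and 48.3 CPM in surface ectoderm, with no overlap. The log2 fold of mesenchyme over ectoderm was -0.94 (SE 0.07), with an adjusted p of 2.97e-06 by edgeR and 59.1% of 10472 genes called (30.9% higher, 28.3% lower). Mesenchyme over endothelium, where 64% of genes were called (31.5% higher, 32.5% lower), gave -0.46 (SE 0.07), from 28.7, 25.6 and 27.0 CPM in endothelium. Of the 1346 words of 60 bases in the ends of Esco1 transcripts, 15.2% also occur in Gm7054, so part of its reads could be shared with that gene. The ends of the other 7 members shared no such word with another gene, and Sgo2b, the near copy of Sgo2a, had a UMI in at most 0.222% of mesenchyme cells in any library at 10000 UMIs per cell and in at most 0.890% without thinning.

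Pttg1, Espl1 and Sgo1 were higher in mesenchyme than in ectoderm. Pttg1 was at 28.4, 35.7 and 30.5 CPM in mesenchyme of mutant 1, mutant 2 and control 1, against 18.4, 22.5 and 21.7 CPM in ectoderm, a log2 fold of 0.70 (SE 0.09) with an adjusted p of 0.000116 by edgeR. Espl1 was higher by 0.45 (SE 0.09) and Sgo1 by 0.27 (SE 0.07), with adjusted p of 0.00234 and 0.00870 by edgeR. Without mutant 2 the Sgo1 difference was 0.19 with an adjusted p of 0.120 by edgeR. Sgo2a was lower in mesenchyme than in endothelium, at 61.4, 62.5 and 53.9 CPM against 84.3, 85.7 and 68.1 CPM, a log2 fold of -0.57 (SE 0.08) with an adjusted p of 0.000105 by edgeR. Esco2 was lower in mesenchyme than in endothelium by -0.44 (SE 0.14), with an adjusted p of 0.0208 by edgeR, but in the control alone it was higher in mesenchyme, 31.4 against 27.3 CPM. The Esco2 call was lost without mutant 1 (-0.35, adjusted p 0.210 by edgeR) and without mutant 2 (-0.24, adjusted p 0.186 by edgeR), and held in 12 of 16 alternatives, with adjusted p from 0.000639 to 0.210. Of the 8 members 5 were called against endothelium, 1 higher and 4 lower, where 64% of 10472 genes were called. Against ectoderm 4 were called, 3 higher and 1 lower, where 59.1% of genes were called. In neither comparison was the share of members above that of all genes.

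Against erythroid cells the direction turned on the scaling. The composition factors of edgeR were 0.48 to 0.556 for erythroid sums, against 1.22 to 1.32 for mesenchyme. Erythroid cells are rich in globin RNA, whose part in these factors was not tested. With these factors 6 of 8 members were lower in mesenchyme, in a comparison with 81.5% of 10472 genes called (42.1% higher, 39.4% lower). On library totals alone Cdca5, Sgo1, Espl1 and Pttg1 were higher in mesenchyme, by 0.95, 0.97, 0.85 and 0.28 on the log2 scale, and Esco1 and Esco2 were at 0.02 and -0.06. Sgo2a was at 61.4, 62.5 and 53.9 CPM in mesenchyme, against 21.9, 22.3 and 22.4 CPM in erythroid cells, higher by 1.42 on library totals and by 0.15 with the factors.

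**Figure D4:**
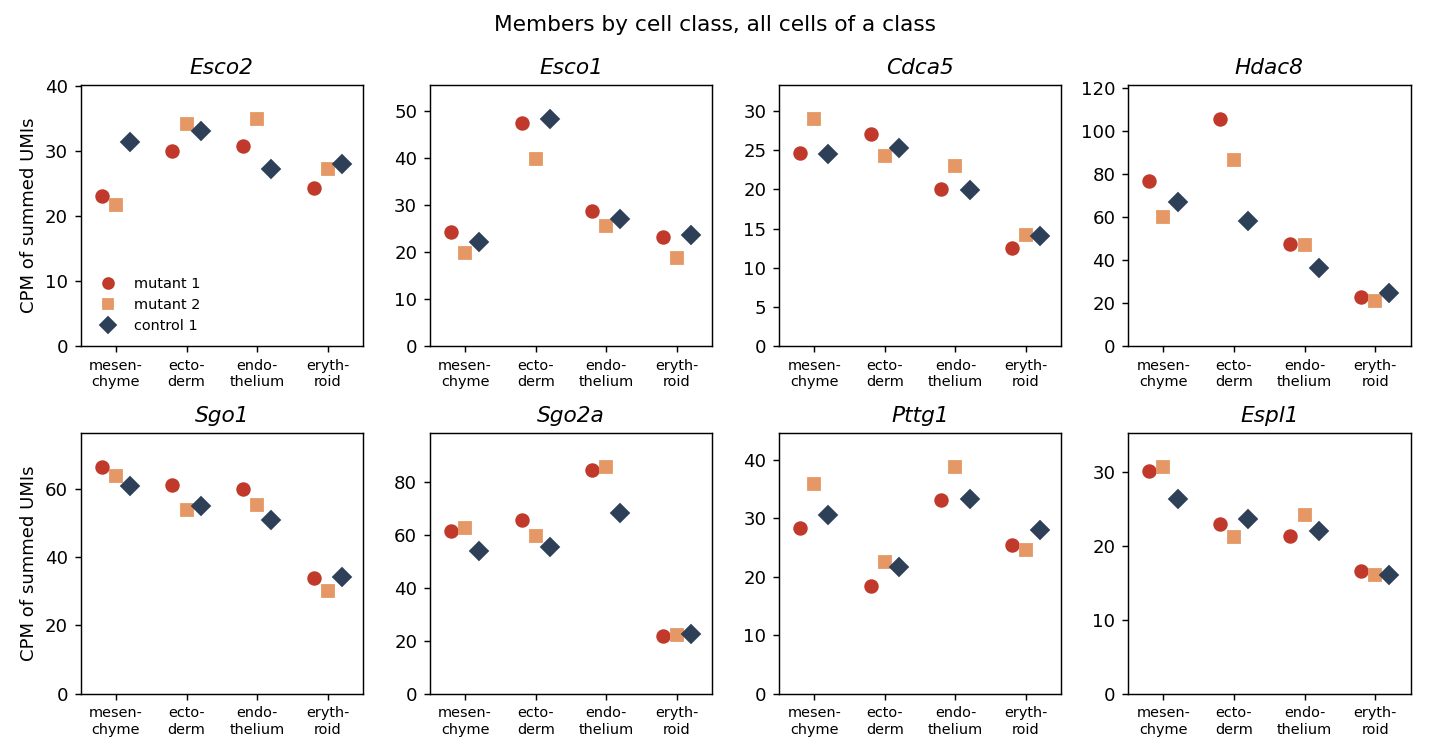
CPM of summed UMIs (vertical axes, each from 0) of the 8 members in all cells of 4 classes; each point is 1 library, mutants left of the control. On this scale of library totals Esco1 in ectoderm is at 47.5, 39.8 and 48.3 CPM, while with composition factors erythroid cells lie further above mesenchyme (-1.25) than ectoderm does (-0.94), and Esco2 in mutant mesenchyme (23.0 and 21.7 CPM) stands below its control (31.4 CPM).

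Mutant mesenchyme holds cells with the p53 target Cdkn1a, an inhibitor of the cell cycle, which was detected in 151 and 251 mesenchyme cells of the mutants, against 6 of the control, at 10000 UMIs per cell. In mutant 1 an Esco2 UMI was found in 29.8% of cells with a Cdkn1a UMI, against 18.7% of the 955 cells without. In mutant 2 it was found in 24.7% of cells with a Cdkn1a UMI, against 17.0% of the 1714 without. The exact 95% intervals did not overlap in either library. Espl1 went the other way, with 19.9% and 13.9% of cells with a Cdkn1a UMI, against 27.3% and 26.7% without. The intervals of Espl1 overlapped in mutant 1 and not in mutant 2. Sgo1 was also less often found, with 33.8% and 33.5% of cells with a Cdkn1a UMI, against 47.3% and 44.6% without. So was Sgo2a, with 29.1% and 37.1% of cells with a Cdkn1a UMI, against 42.5% and 42.4% without. The intervals of Sgo2a overlapped in mutant 2 and not in mutant 1. Pttg1 was slightly more often found, 23.2% and 29.1% against 19.5% and 27.4%, with overlapping intervals. Cdca5 was split between the mutants, with 25.8% and 21.1% of cells with a Cdkn1a UMI, against 17.0% and 26.0% without. Cells with a Cdkn1a UMI were more often S-high, 47.0% and 54.2% against 36.0% and 39.7%, and less often G2/M-high, 25.8% and 25.9% against 42.2% and 50.4%. The part of this in the members' shares was not tested, and cells of 1 library are not replicates, so no test was made.

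**Figure D5:**
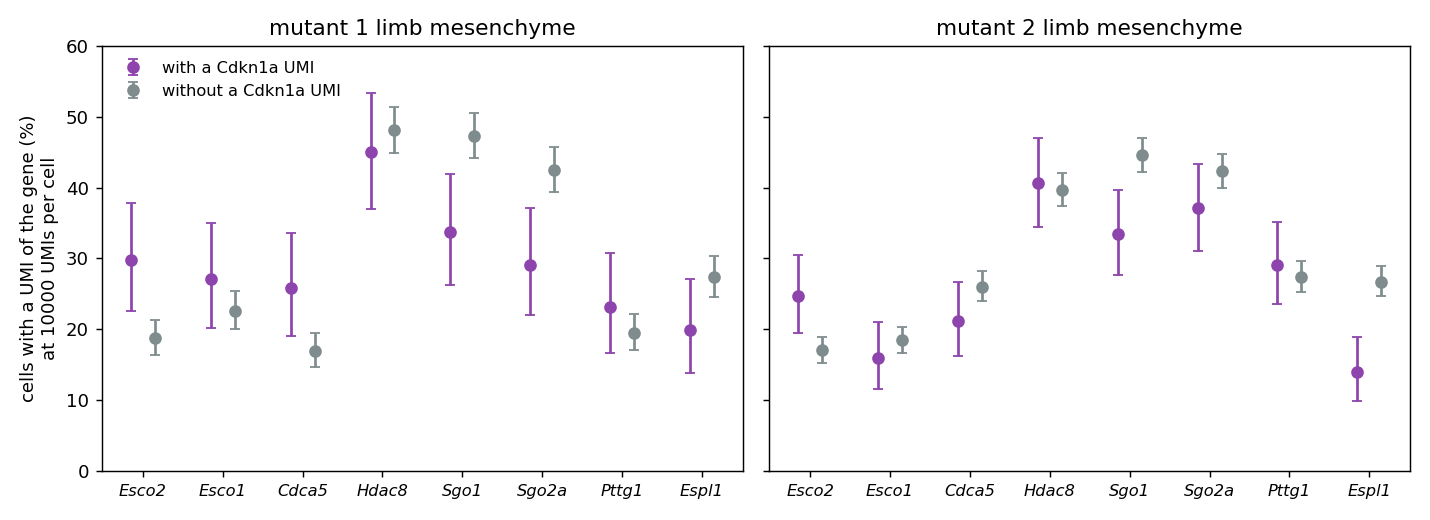
Percent of limb mesenchyme cells with a UMI of each member at 10000 UMIs per cell (vertical axis), in cells with (left of each pair) and without a Cdkn1a UMI, in mutant 1 and mutant 2; bars are exact 95% intervals for counting error. Esco2 and, by less, Pttg1 are more often found, and Sgo1, Sgo2a and Espl1 less often, in cells with a Cdkn1a UMI in both libraries.

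The genes whose levels ran most like each member over the 36 sums of 4 classes, 3 states and 3 libraries are given by name. These sums share libraries and cells of 1 class, so the likeness is a description among 10534 genes. The 3 genes most like Esco2 were the histone genes Hist1h1e, Hist1h2bb and Hist1h1d, with Pearson r of 0.86 to 0.83, the lowest top value of any member. Those most like Cdca5 were Spc24, Fbxo5 and Traip (0.94 to 0.93). Those most like Sgo1 were Nuf2, Top2a and Dbf4 (0.98 to 0.97), and those most like Sgo2a were Kif22, Incenp and Ndc80 (0.97 to 0.96). Espl1 ran most like Nek2, Top2a and Depdc1a (0.93 to 0.91). Nuf2, Top2a, Ndc80 and Nek2 are in the G2/M list that cut the states, so their likeness is partly built in. Pttg1 ran most like Minos1, Cycs and Atp5g3 (0.93 to 0.90), which encode mitochondrial proteins. Esco1 ran most like Tmcc3, Fhl1 and Nipal2 (0.95 to 0.94), and Hdac8 most like Fbxo38, Smg6 and Slc33a1 (0.97 to 0.96).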

How the data were processed

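Single-cell RNA libraries were made with 10x Chromium 3′ chemistry from trypsinised, frozen and thawed limb bud cells, per the labels' protocols. The deposited values are raw UMI counts per gene and barcode, made by the authors with Cell Ranger 7.0.0 on mm10, with Seurat 4.0.0 also named, per the submitters' processing notes. Not given in the sources used here: annotation release, handling of intron reads, and how cells were called.

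Barcodes with at least 500 genes and under 10% mitochondrial UMIs were kept, and doublets called by Scrublet in scanpy 1.11.5 (expected rate 0.06) were removed: 2.60% and 2.54% of mutant cells and 1.00% of control cells. Totals were 178159788 and 225032823 UMIs in the mutant libraries and 202581488 in the control. Each cell was thinned to 10000 UMIs for classes, states and shares. A class was the list, of 8, with the highest share of its markers detected, at least 3 markers and a lead over every other list, by thresholds set after the cells had been seen. Unthinned counts were summed per library, class and state and tested with edgeR 4.0.16 (TMM factors, mean of at least 5 CPM, quasi-likelihood, Benjamini-Hochberg) in R 4.3.3. Mutant over control and the interaction terms had 1 residual degree of freedom each. State and class fits had a term for each library, since their sums come from the same libraries. Alternatives, among them DESeq2 1.42.0, are given in the closing section. The fits were tested on simulated data. Intervals are exact binomial at 95% and the limit of a count of 0 is 3 counts. The members, lists and comparisons were chosen with earlier results of these data known. All 8 members are named, other genes come from 3 lists of cohesin genes, and the genes most like a member are the top 3 by Pearson's r. Positions are from GENCODE M21 on GRCm38, where 30934 of 31054 features matched by ID.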

Additional observations from a re-analysis of the deposited data

Results flagged for a closer look

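Within mesenchyme the mutant effect differed between G2/M-high and S-high cells for 2 members by edgeR's interaction term, by -0.52 on the log2 scale for Esco2 and by 0.30 for Hdac8. That fit had 1 residual degree of freedom and called 6.61% of 10084 genes. The term was added after the state values had been seen, and DESeq2 called 0 members. Among the alternatives with an adjusted p, Esco2 was called in 11 of 13 and Hdac8 in 6 of 14.

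In other pairs both mutants lay on one side of the control in the first group of cells and both on the other side in the second, and these differences were not tested. The mean Esco2 difference was -0.77 between mesenchyme and endothelium, -1.02 between G2/M-high and low-in-both mesenchyme, and -0.49 between S-high and low-in-both mesenchyme. For Espl1 it was 0.31 between G2/M-high and low-in-both mesenchyme and 0.27 between S-high and low-in-both mesenchyme. Between S-high and low-in-both mesenchyme it was 0.12 for Sgo1 and -0.31 for Hdac8. All share the same 1 control library.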

How the results depend on the processing

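Of the members' log2 folds recomputed under 18 other settings, 1839 were counted as the same, 33 as weaker, 34 as stronger, 10 as reversed and 11 as moved. Same meant an unchanged side of the threshold or, without an adjusted p, a value near the reported one. A fold counted as reversed only if it was called before or after. Uncalled folds that changed direction were thus counted as the same, such as Sgo1 between mutant and control mesenchyme (-0.12 to 0.10). The cause of the changes was not tested. The member counts that follow are given without the share of all genes called under each setting. In the values reported, 1.04% of genes were called between G2/M-high mutant and control mesenchyme, and 6.61% for the interaction between states. Between G2/M-high mutant and control mesenchyme 1 member, Esco2, was called at a depth of 5000 UMIs, with doublets kept and with at least 4 markers, against 0 in the values reported. For the interaction between states, 0 members were called by DESeq2, on thinned sums and among cells with at least 10% ribosomal protein UMIs, and 1 at a depth of 20000, under 5% mitochondrial UMIs, with doublets kept, with scanpy phases and without shared barcodes. With at least 10% ribosomal protein UMIs, 3 members were called for G2/M-high over low-in-both cells, where Cdca5 and Pttg1 reversed to -0.10 and -0.059, and 1 for S-high over low-in-both cells. In that last comparison Sgo1 reversed to -0.21 under 5% mitochondrial UMIs, and Sgo2a and Espl1 to 1.33 and 0.34 with scanpy phases. For mesenchyme over erythroid cells without composition factors, Esco1, Cdca5, Sgo1, Espl1 and Pttg1 reversed to 0.024, 0.95, 0.97, 0.85 and 0.28. For mesenchyme over endothelium 2 members were called on thinned sums.

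Leaving out each library in turn, 3 to 5 members were called for G2/M-high over S-high cells, 5 to 7 for G2/M-high over low-in-both cells, 5 for S-high over low-in-both cells, 3 to 6 against ectoderm, 3 to 5 against endothelium and 5 to 7 against erythroid cells. With all 3 libraries these comparisons called 14.5%, 74.1%, 72.1%, 59.1%, 64% and 81.5% of all genes, in the same order. The shares of all genes with 1 library left out are not given here, so the member counts alone do not show stability. Without 1 mutant, mutant over control has no residual degree of freedom and gives values with no test. No paired analysis was possible because the control label carries no replicate number and there is 1 control library. Without the replicate block the state comparisons called 4, 5 and 3 members for G2/M-high over low-in-both, S-high over low-in-both and G2/M-high over S-high cells, and 222 genes in the last, against 1488 with it.

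In mutant over control mesenchyme 152 genes were called, against 61 by DESeq2, 611 with no filter, 55 on thinned sums and 19 with at least 10% ribosomal protein UMIs. With 1 control library, the spread among controls is unknown.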
